A study of Gallus gallus with 3 samples.

Results

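The Toll-like receptors of the chicken were followed across 3 lines of DT40, a chicken B-cell lymphoma line, on Agilent single-colour arrays. Of 10 receptors sought (TLR1A, TLR1B, TLR2A, TLR2B, TLR3, TLR4, TLR5, TLR7, TLR15 and TLR21), 7 had probes, which were found by matching each probe's RefSeq accession to a chicken gene table. They had 18 probes in all, of 43596 probes analysed. Of these, 11934 carried a gene name and stood for 5382 genes. No probe could be assigned to TLR2A, TLR5 or TLR15 in this way, and these are not analysed here. TLR2B is listed in the gene table as TLR2, with TLR2B as a synonym. TLR1A and TLR1B, like TLR2A and TLR2B, are paralogues of similar sequence, and whether a probe tells the copies apart was not tested.

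The groups were double-knockout (DKO) cells carrying H2A.Z1ΔC, an H2A.Z1 without its C-terminus (truncated), the DKO line with introduced H2A.Z1 of full length (called full-length here, as labelled), and wild-type DT40. H2A.Z is a histone variant that replaces H2A in some nucleosomes. Both DKO lines share the loss of the endogenous H2A.Z genes. The promoter that drives the introduced protein, and whether each line is 1 clone, are not given in the sources used here. Each line was examined on 1 array, so no difference below has a replicate check and no p-value is given. Precision is limited by this number of arrays.

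Toll-like receptors are membrane proteins that recognise microbial molecules and signal through adaptor proteins such as MYD88 to NF-κB, MAP kinases and interferon regulatory factors. Those at the cell surface bind bacterial products: pairs of TLR2 and TLR1 proteins bind lipopeptides, and TLR4 binds lipopolysaccharide. Those in endosomes bind nucleic acids: TLR3 double-stranded RNA, TLR7 single-stranded RNA, and TLR21, which mammals lack, unmethylated CpG DNA. Birds carry duplicated TLR1 and TLR2 genes. B cells of vertebrates express some of these receptors, TLR7 among them.

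The spots were read on slide 2 in scan 2 for the truncated line, and on slide 1 in scan 1 for the full-length and wild-type lines. Wherever the truncated line is compared, its slide and its genotype cannot be told apart. Array brightness, taken as the 75th percentile of processed signals, was 1039 for the truncated line, 1558 for the full-length line and 1455 for wild type. H2AFZ, the gene of H2A.Z1, had a log2 difference from wild type of -6.55 in truncated cells and -5.77 in full-length cells (mean over its probes). These probes thus do not show an introduced H2A.Z1 transcript near the wild-type level in either DKO line, and whether they could detect it is not known here, so the full-length and truncated names rest on the labels. B-cell genes checked the labelled cell type: of 17 listed markers with probes, 17 had a probe well above background in truncated cells, 17 in full-length cells and 16 in wild-type cells. Signals of these markers, each divided by its array's 75th percentile, summed to 269, 292 and 283. Of 12 macrophage and granulocyte markers with probes, 10, 8 and 10 were well above background in the lines in this order. Their signals summed in the same way to 1.33, 1.27 and 1.30, with C1QC well above background on no array. Of 11 T-cell markers with probes, 8, 7 and 8 were well above background, CD4 and RAG1 on no array, with summed signals of 56.1, 81.5 and 95.1. For 8 thrombocyte and erythroid markers the counts were 7, 7 and 6 and the sums 11.8, 9.28 and 8.98. The globin genes HBAD, HBA1, HBBA and HBE are among these markers, and RNA preparation included globin depletion. Its effect on these values was not tested. For 9 fibroblast and endothelial markers the counts were 5, 5 and 4, with sums of 0.856, 1.95 and 1.09. These sums add probes of different brightness and of unequal number, 38, 18, 24, 14 and 40 for the 5 lists in this order. Of all probes, 72.7%, 68.7% and 69.7% were well above background in truncated, full-length and wild-type cells. Counts of markers above background thus hardly tell cell types apart. By gene, 0 of 7 measured T-cell markers were changed in truncated against wild-type cells, beside 6.92% of all genes. Their median log2 difference was 0.06, with single genes from -0.78 to 0.66. In full-length against wild-type cells 2 of 7 were changed, CD3E at 2.09 and CD5 at -1.75, beside 3.37%. In truncated against full-length cells 2 of 7 were, beside 4.67%. Changed B-cell markers numbered 3 of 16, 1 of 16 and 2 of 17 in these comparisons, in that order. Changed macrophage and granulocyte markers were 2 of 9, 0 of 8 and 1 of 8. For thrombocyte and erythroid markers the counts were 1 of 6, 1 of 6 and 0 of 7. For fibroblast and endothelial markers they were 1 of 3, 1 of 3 and 1 of 4. The part of other cell types in the receptor results was not tested.

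Levels are given as log2 of the processed signal over the 75th percentile of the array, so 0 is the signal of a probe at that percentile. A level is compared between arrays for 1 probe at a time, never between probes, because probes differ in brightness for reasons other than transcript amount. A difference of 1 or more on the log2 scale, that is 2-fold, was called a change when the probe was well above background on both arrays. Errors beside signals are those the scanner software assigned to the spot, and errors beside log2 differences combine them. They cover the spot and leave out culture, RNA preparation and hybridisation. Every receptor probe was printed as 1 spot.

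Of the 18 receptor probes, 15 were well above background in truncated cells, 13 in full-length cells and 10 in wild-type cells. That is 83.3%, 72.2% and 55.6% of them, beside 72.7%, 68.7% and 69.7% of all probes on these arrays. The lowest signal that passed was 5.37 in truncated cells, 9.96 in full-length cells and 9.91 in wild-type cells, so dim probes passed at a lower signal in truncated cells. On all 3 arrays 9 probes were, which belonged to TLR7, TLR2B, TLR3, TLR4 and TLR21. No probe of TLR1A or TLR1B was well above background in wild-type cells.

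**Figure D1:**
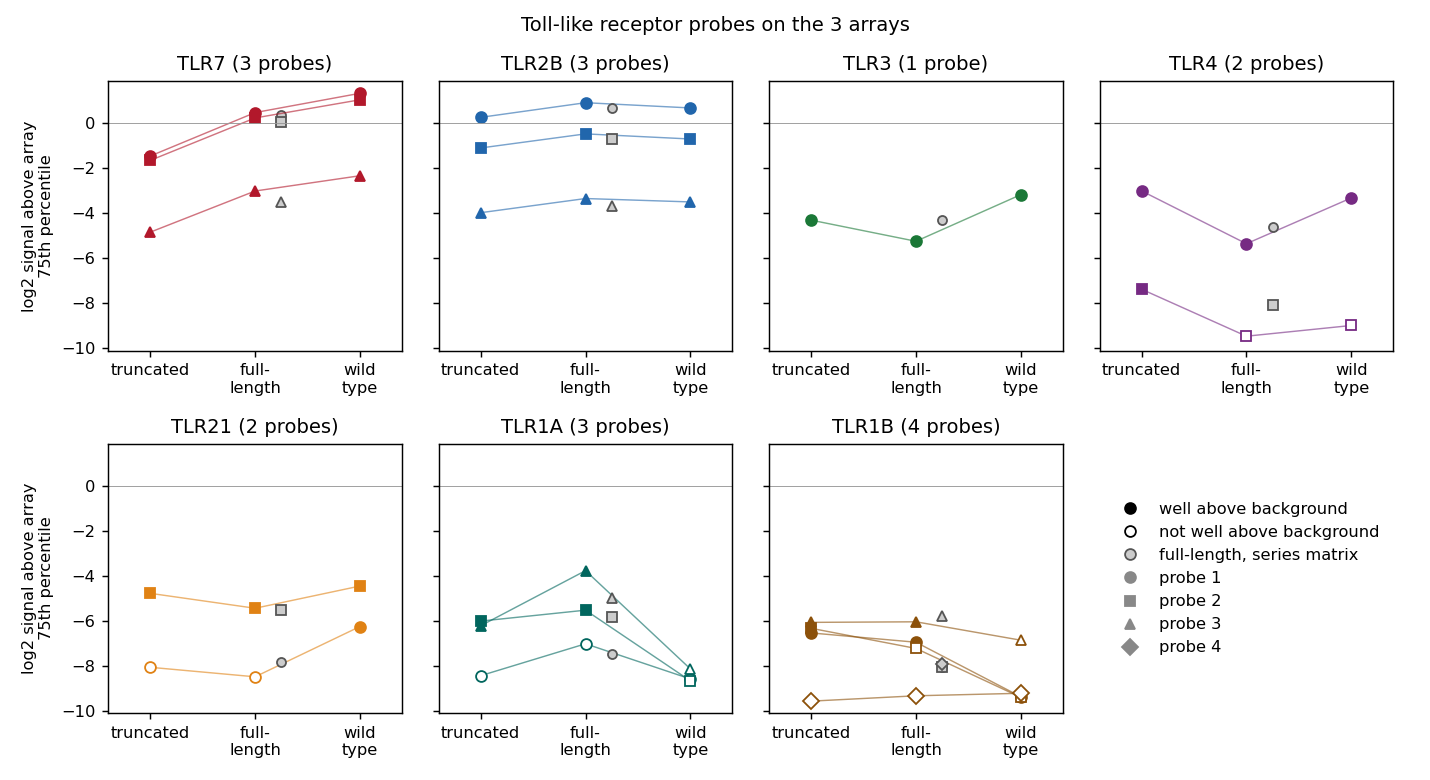
Levels of the 18 receptor probes (y axis, log2 of signal over the array's 75th percentile) on the truncated, full-length and wild-type arrays (x axis), one panel per receptor; lines join a probe's values, filled symbols were well above background and open symbols were not, and grey symbols are the series-matrix values of the full-length line. TLR7 was lowest on the truncated array by all 3 probes, TLR4 probe 1 and TLR3 were lowest on the full-length scanner array, and TLR1A and TLR1B were not well above background in wild-type cells.

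TLR7, the endosomal receptor for single-stranded RNA, was lower in truncated cells than in both other lines by all 3 of its probes. Probe 1 had a signal of 376 ± 37.6 in truncated cells, 2153 ± 215 in full-length cells and 3646 ± 365 in wild-type cells (software error). Probe 2 had signals of 329 ± 32.9, 1824 ± 182 and 2985 ± 298 on the same arrays. Probe 3 was dimmer, with 36.0 ± 3.83, 192 ± 19.3 and 287 ± 28.8. The order of the lines was the same at each probe after scaling, with truncated cells lowest and wild type highest. Relative to wild type TLR7 was 6.35-fold lower in truncated cells and 1.72-fold lower in full-length cells (means over 3 probes on the log2 scale). In RNA from a whole culture, less transcript per cell and fewer cells that hold it cannot be told apart.

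In truncated against wild-type cells the TLR7 log2 differences were -2.79 ± 0.20, -2.70 ± 0.20 and -2.51 ± 0.21 for probes 1 to 3 (software error). The standard deviation between these probes was 0.143, and the widest gap between 2 of them was 0.281. Over 2730 genes in this comparison, the gap between paired probes of one gene (its 2 brightest) had a standard deviation of 0.363. The median size of that gap was 0.169, which is less than the widest TLR7 gap. At probe 1, 78 of 29594 probes (0.264%) fell as far or farther. Against full-length cells the 3 differences in truncated cells were -1.93, -1.89 and -1.83, again past the threshold for every probe. Here 80 of 29499 probes (0.271%) were as low as probe 1 or lower.

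Full-length cells differed less from wild type, with TLR7 log2 differences of -0.86, -0.81 and -0.68, none past the threshold. With the series-matrix values of the full-length line, whose source array is unknown, they were -0.95, -0.97 and -1.17. The fall of truncated below full-length cells was then -1.84, -1.73 and -1.34. The direction of all 9 TLR7 differences held under every alternative processing tried, and probe 3 moved most. With normexp background correction and 75th-percentile scaling it stood at -1.33 in truncated against wild-type cells. In truncated against full-length cells it stood at -0.74, short of the threshold. Normexp was run with an offset of 50 added to each corrected signal, which is more than this probe's truncated signal of 36.0. Such an offset shrinks the log2 differences of dim probes by construction, so their size under normexp does not test a call. The 3 probes lay in rows 159, 110 and 391 of the array.

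TLR2B, which pairs with TLR1 proteins to bind lipopeptides, was measured on all arrays by 3 probes and stayed under the threshold at each of them in every comparison. Probe 1 had signals of 1240 ± 124 in truncated cells, 2919 ± 292 in full-length cells and 2321 ± 232 in wild-type cells. Signals of probe 2 were 482, 1116 and 891 on these arrays, and of probe 3 65.6, 152 and 128. After scaling, the truncated array was the lowest at each of the 3 probes.

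Against wild type, TLR2B in truncated cells had log2 differences of -0.42, -0.40 and -0.48, each ± 0.20 or 0.21 by software error. Against full-length cells they were -0.65, -0.63 and -0.63, with a standard deviation between probes of 0.0134. Full-length cells differed from wild type by 0.23, 0.23 and 0.15. With the series-matrix values the full-length differences from wild type were 0.01, 0.02 and -0.19, so the third probe's direction depended on the profile used.

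TLR3, the endosomal receptor for double-stranded RNA, had 1 probe. Its signal was 52.2 ± 5.35 in truncated cells, 40.7 ± 4.62 in full-length cells and 160 ± 16.2 in wild-type cells. Wild-type cells were thus the highest. The log2 difference from wild type was -1.13 ± 0.21 in truncated cells and -2.07 ± 0.22 in full-length cells, or 2.19-fold and 4.21-fold lower. In truncated against full-length cells it was 0.94 ± 0.22, short of the threshold. The series-matrix values changed the full-length results, to -1.13 against wild type and -0.01 in truncated against full-length cells. Normexp with quantile normalization gave -1.15 and 0.42 for these. Normexp with quantile normalization put the truncated cells at -0.74 against wild type, and normexp with the 75th percentile at -0.52. Both are short of the threshold. The normexp offset of 50 is about the size of the TLR3 signal in both DKO lines. Smaller differences are thus built into normexp here, and these values do not test the call.

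TLR4, the lipopolysaccharide receptor, had 2 probes. Probe 1 had a signal of 128 ± 12.9 in truncated cells, 37.8 ± 4.38 in full-length cells and 145 ± 14.6 in wild-type cells. Full-length cells stood below both others. The log2 difference was 2.35 ± 0.22 in truncated against full-length cells, a 5.10-fold difference that 140 of 29499 probes (0.475%) equalled or passed. In full-length against wild-type cells it was -2.04 ± 0.22, or 4.10-fold lower, and in truncated against wild-type cells 0.31 ± 0.21. With the series-matrix values these full-length results were smaller but still past the threshold, at 1.61 for truncated against full-length and -1.30 for full-length against wild type. Normexp with quantile normalization brought them to 1.20 and -1.05. The normexp offset of 50 exceeds the full-length signal of 37.8, so this shrinkage is at least partly built in and does not test their size. Probe 2 was well above background on the truncated array only, at a signal of 6.20 ± 1.34 that is under the lowest passing signal of the other arrays, against 2.18 in full-length and 2.84 in wild-type cells, and allowed no fold.

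TLR21, the avian receptor for CpG DNA, also had 2 probes. Probe 2 had a signal of 37.7 ± 4.06 in truncated cells, 35.7 ± 4.47 in full-length cells and 66.2 ± 7.16 in wild-type cells. Its log2 difference from wild type was -0.32 ± 0.22 in truncated cells and -0.99 ± 0.24 in full-length cells, the second just short of the threshold. Truncated cells stood 0.66 ± 0.24 above full-length cells on the log2 scale. For full-length against wild type the series-matrix values gave -1.08, past the threshold, and normexp gave -0.35 with quantile normalization and -0.47 with the 75th percentile. Truncated against wild type was 0.0019 with normexp and the 75th percentile, and truncated against full-length 0.055 with normexp and quantile normalization. The normexp offset of 50 is of the size of these signals, so smaller differences under normexp are partly built in. Probe 1 had signals of 3.86 in truncated and 4.31 in full-length cells, neither well above background, against 19.0 ± 3.28 in wild-type cells, which was. It was at least 2.52-fold lower in truncated cells and at least 2.04-fold lower in full-length cells. In such a bound, the dim array is taken at the higher of the probe's own level and the lowest level among probes well above background there.

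TLR1A and TLR1B encode TLR1 proteins that pair with TLR2, and lie side by side in the gene table with 0 genes between them. Their transcripts were not well above background in wild-type cells by any of their probes, whereas both DKO lines had some probes above it. TLR1A probe 3 had a signal of 13.9 ± 1.87 in truncated cells, 114 ± 11.6 in full-length cells and 5.13 ± 2.32 in wild-type cells. Probe 2 had 16.0 ± 1.95, 33.6 ± 3.93 and 3.55 ± 2.05 on these arrays. Both were thus highest on the full-length array. Probe 1 was not well above background on any array.

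Relative to wild type, TLR1A stood higher on the full-length scanner array by at least 10.7-fold at probe 3 and at least 3.17-fold at probe 2. For truncated cells these bounds were at least 1.96-fold and at least 2.27-fold higher. The series-matrix levels of full-length cells were below the scanner levels by 1.21 at probe 3 and 0.30 at probe 2 on the log2 scale. Full-length bounds from them would thus be smaller. The probes disagreed on truncated against full-length cells, with log2 differences of -2.45 ± 0.24 at probe 3 and -0.49 ± 0.24 at probe 2. The gap of 1.96 between them is wider than 0.306, the standard deviation of the gap between paired probes of one gene in that comparison. That spread comes from probes well above background on all 3 arrays. TLR1A probes 2 and 3 are dim and were not above background in wild-type cells, so it may be too narrow for them. With the series-matrix values the same differences were -1.24 and -0.18. With normexp and the 75th percentile they were -0.73 and 0.23, the second with the opposite sign. At probes this dim the normexp offset shrinks differences by construction.

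TLR1B had 4 dim probes. Signals at probe 1 were 11.1 ± 1.55 in truncated cells, 12.5 ± 2.43 in full-length cells and 2.18 ± 2.05 in wild-type cells. Those at probe 3 were 15.4 ± 2.07, 23.5 ± 3.57 and 12.5 ± 2.95. Probe 2 was well above background on the truncated array alone, at 12.8 ± 1.74, and probe 4 on none. Against wild type the bounds were at least 1.57-fold and 1.82-fold higher in truncated cells for probes 1 and 2. In full-length cells the bound was at least 1.18-fold for probe 1. At probe 3 the wild-type signal of 12.5 lay over the lowest passing signal of 9.91, so its values are plain ratios and no minimum. They were 1.73-fold in truncated and 1.76-fold in full-length cells. No bound or ratio reached 2-fold. Truncated and full-length cells differed by a log2 value of 0.41 ± 0.34 at probe 1 and -0.03 ± 0.29 at probe 3, within about the software error. With the series-matrix values probe 1 stood at 1.53, past the threshold.

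**Figure D2:**
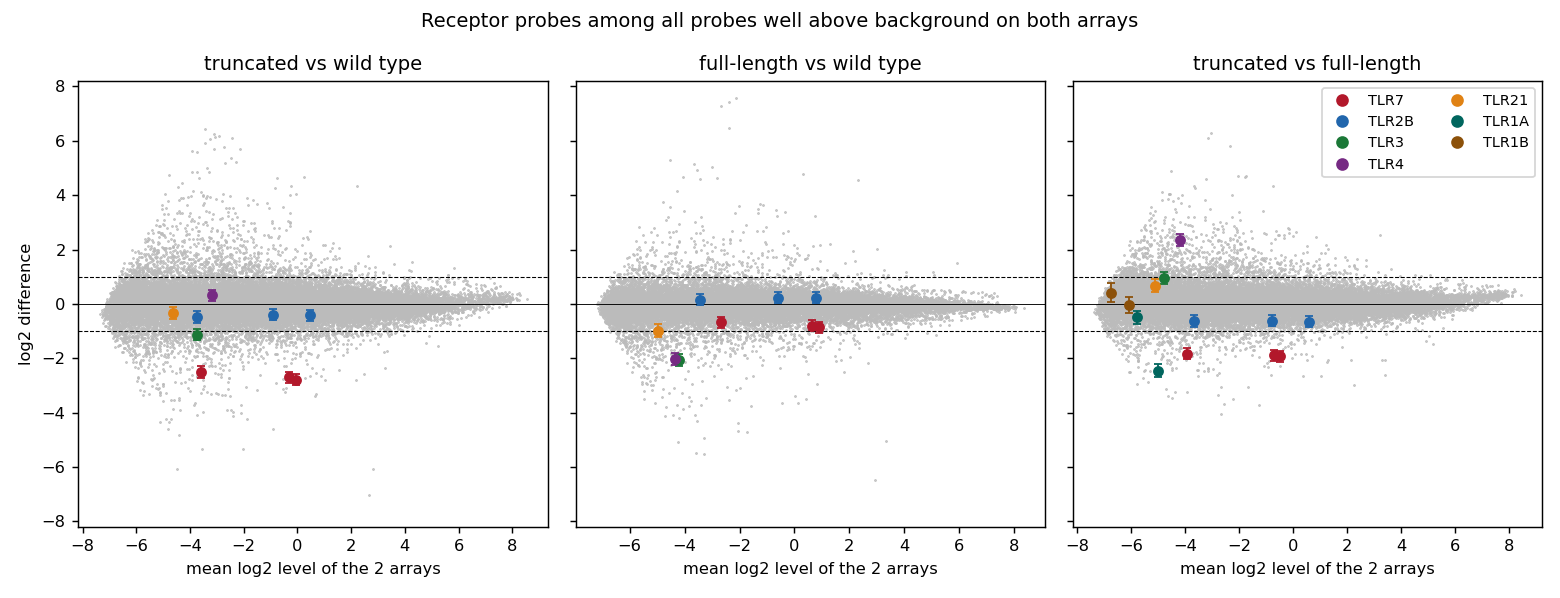
Log2 difference (y axis) against mean log2 level of the 2 arrays (x axis) for every probe well above background on both arrays (grey) and for the receptor probes (coloured; bars are the software error), in truncated against wild-type, full-length against wild-type and truncated against full-length cells; dashed lines mark a difference of 1. The TLR7 probes lie between -2.51 and -2.79 in the first panel, TLR3 and TLR4 probe 1 near -2.07 and -2.04 in the second, and TLR4 probe 1 at 2.35 in the third.

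Counted over the family in truncated against wild-type cells, 9 receptor probes could be compared and 4 were changed, 0 higher and 4 lower. Of all 29594 probes tested in the same way, 7.62% were changed, 3.86% higher and 3.76% lower. By receptor, 2 of 5 were changed, TLR7 and TLR3, with a median log2 difference over the 5 of -0.43, where 6.92% of 4264 genes were changed. Both receptors were lower and 0 were higher, against 3.56% and 3.35% of genes. Of the 7 receptor probes above background on 1 array of this pair, 1 had a bound of 2-fold or more upwards, where 14.4% of such probes had one. Likewise 1 had one downwards, against 17.9%.

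In full-length against wild-type cells, the only pair on a single slide, 2 of 9 receptor probes were changed, both lower. Over all probes the changed share was 3.67%, with 1.43% higher and 2.24% lower. By receptor, 2 of 5 were changed, TLR3 and TLR4, with a median of -0.99, where 3.37% of 4218 genes were changed, 1.19% higher and 2.18% lower. Of the 5 receptor probes above background in 1 line of this pair, 2 had a bound of 2-fold or more upwards and 1 downwards, against 10% and 21.8% of all such probes. With the series-matrix values 4 of the 9 probes were changed, all lower, where 7.16% of all probes were changed.

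In truncated against full-length cells 5 of 13 receptor probes were changed, 1 higher and 4 lower. Over all probes 5.33% were changed, 3.65% higher and 1.68% lower. By receptor 3 of 7 were, TLR4 higher and TLR7 and TLR1A lower, where 4.67% of 4237 genes were changed, 3.12% higher and 1.56% lower. Neither of the 2 receptor probes above background in 1 of these lines had a bound of 2-fold or more (0 of 2), against 15.7% upwards and 8.13% downwards over all such probes. The call of TLR1A rests on the mean of its disagreeing probes, -1.47, which was -0.71 with the series-matrix values, -0.66 with normexp and quantile normalization, and -0.25 when normexp was followed by 75th-percentile scaling. Under each of these 2 of 7 receptors were changed. For the 2 normexp values a smaller difference is partly built in by the offset. The comparisons share arrays, so the counts are not independent of one another, and the probes of one receptor are not separate observations.

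**Figure D3:**
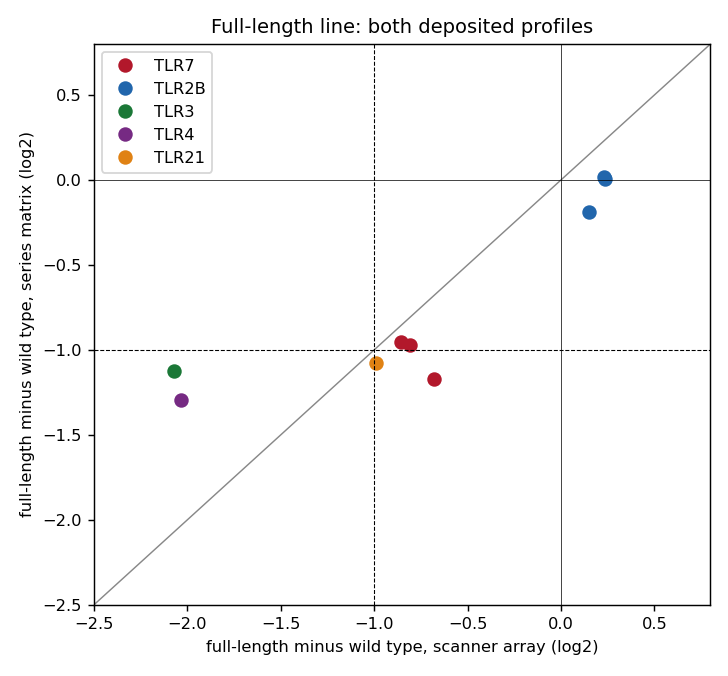
Log2 difference of full-length from wild-type cells for the 9 receptor probes well above background on both arrays, from the scanner array of the full-length line (x axis) and from the series-matrix values of that line (y axis); the diagonal marks equal values and dashed lines a difference of -1. TLR7 and TLR21 lie between -0.68 and -1.17 in both, whereas TLR3 and TLR4 are near -2 by the scanner array and at -1.13 and -1.30 by the matrix.

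The series-matrix values of the truncated and wild-type lines were the scanner signals times 1.53 and 1.07. Only the values labelled as the full-length line differ from its scanner array, and their source array is unknown. Over 29944 probes the matrix and scanner levels of that line differed with a standard deviation of 0.491 on the log2 scale. The software errors given above do not cover this spread. For TLR4 probe 2 and TLR1B probe 4, not well above background in full-length cells, the matrix level exceeded the scanner level by 1.38 and 1.39 on the log2 scale. Among the 13 receptor probes well above background there, the largest gaps were at TLR1A probe 3, with a matrix level 1.21 below the scanner level, TLR1B probe 1 at -1.12 and TLR3 at 0.95. The bright probes of TLR7 and TLR2B moved by -0.09 to -0.23.

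**Figure D4:**
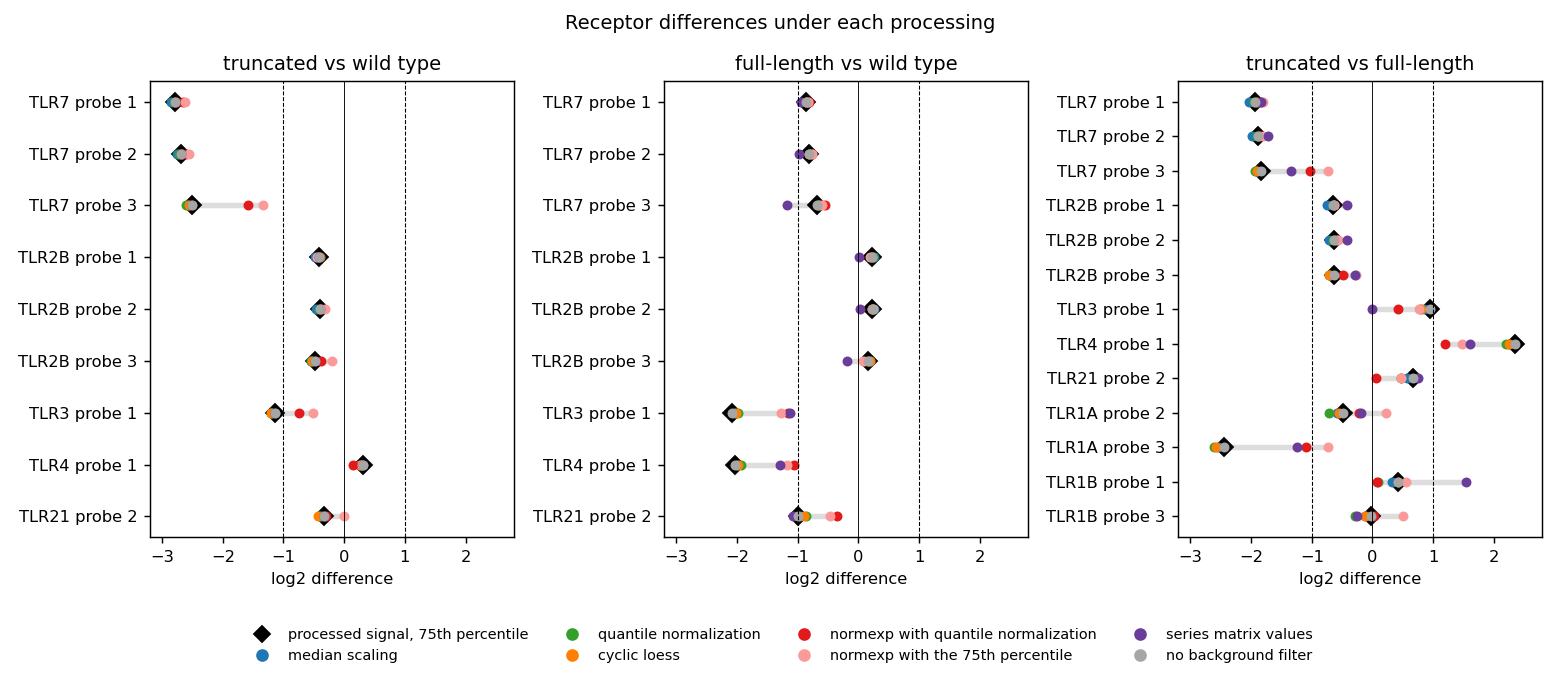
Log2 difference (x axis) of each receptor probe well above background on both arrays (y axis) in truncated against wild-type, full-length against wild-type and truncated against full-length cells, under 8 ways of processing the signals (colours; black diamonds are the values given in the text); grey bars span the range and dashed lines mark a difference of 1. TLR7 probes 1 and 2 stay between -2.85 and -2.56 in truncated against wild-type cells, while TLR1A probe 3 ranges from -2.60 to -0.73 in truncated against full-length cells.

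The proteins that carry the receptor signal were examined as lists. Of 19 listed adaptors and proximal kinases, 9 had named probes, all measured on both arrays of each pair, and 0 were changed in any comparison. Over all genes 6.92% were changed in truncated and 3.37% in full-length cells against wild type, and 4.67% between the DKO lines, so a count of 0 of 9 is near the share of all genes. The counts of the lists below are to be read against the same shares. All lists were chosen with earlier results of these data known, so their counts are descriptions and no support for a change of a pathway. The adaptors' median log2 difference was -0.21 in truncated and 0.07 in full-length cells against wild type, where the medians over all genes were -0.00061 and -0.021. It was -0.27 in truncated against full-length cells, where that over all genes was 0.015. MYD88, the adaptor that most of these receptors share, had signals of 1446 in truncated cells, 3090 in full-length cells and 2485 in wild-type cells at probe 1. Its log2 differences from wild type were -0.29 in truncated and 0.22 in full-length cells at that probe, and -0.07 and -0.04 at probe 2.

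TICAM1, the adaptor of TLR3, was lower on the truncated array at each of its 4 probes, by log2 differences from wild type of -0.49, -0.64, -0.53 and -0.56. Full-length cells differed from wild type at those probes by 0.17, 0.12, 0.01 and -0.01. TIRAP, which brings MYD88 to surface receptors, had a log2 difference from wild type of 0.64 in truncated cells and 0.05 in full-length cells (1 probe). TOLLIP, an inhibitor of receptor signalling, had -0.52 and -0.07 at its brighter probe and 0.09 and 0.08 at the other. No named probe was found for IRAK4, IRAK2, TRAF6, TRAF3, LY96 or UNC93B1 (0 probes each).

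Among proteins that help the receptors, HSP90B1, a chaperone for several of them, had 4 bright probes. Their log2 differences from wild type ran from -0.40 to 0.13 in truncated cells and from 0.16 to 0.27 in full-length cells. CD14, a co-receptor for lipopolysaccharide, had signals of 1.20 in truncated and 4.09 in full-length cells, neither well above background, against 28.8 in wild-type cells, which was. It was at least 3.83-fold lower in truncated and at least 3.10-fold lower in full-length cells.

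Downstream, 15 of 26 listed genes of the NF-κB and interferon regulatory factor arm were measured, and 1 was changed in truncated against wild-type cells, near the 6.92% of all genes. It was IRF1, a transcription factor of the interferon response. Its probe 1 had signals of 27.9 in truncated cells, 74.7 in full-length cells and 203 in wild-type cells, and probe 2 had 12.1, 42.4 and 127. The truncated array was the lowest and the wild-type array the highest at both. The mean log2 difference from wild type was -2.67 in truncated and -1.61 in full-length cells, and -1.05 in truncated against full-length cells. IRF8, a factor of B and myeloid cells, had a mean of -0.15 in truncated and -1.08 in full-length cells against wild type. In full-length against wild-type cells 2 of 15 were thus changed, both lower, beside 3.37% of all genes changed and 2.18% lower. In truncated against full-length cells 1 of 15 was, IRF1, beside 4.67%. The list medians were -0.12 in truncated and -0.03 in full-length cells against wild type, and 0.04 in truncated against full-length cells.

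Of the MAP kinase arm, 10 of 24 listed genes were measured and 1, MAPK11, was changed, higher than wild type by log2 differences of 5.37 in truncated and 4.65 in full-length cells (1 probe; the other 2 probes were not well above background in wild type). The list medians were 0.19 in truncated and 0.14 in full-length cells against wild type. Between the DKO lines 0 of 10 were changed, with a median of 0.07 (truncated against full-length). None of 9 measured negative regulators was changed in the 3 comparisons (0 of 9 in each, near the shares of all genes), with medians of 0.01 in truncated and 0.08 in full-length cells against wild type and -0.22 in truncated against full-length cells.

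Of 38 listed NF-κB target genes, 30 had probes and 9 of these were not well above background on any array, IL6, IL12B, IL8L2 and PTGS2 among them. In truncated against wild-type cells 2 of 16 measured targets were changed, both higher, beside 6.92% of all genes changed and 3.35% higher: GCH1, an enzyme of tetrahydrobiopterin synthesis, at a mean log2 difference of 3.21, and LITAF, a regulator named for its response to lipopolysaccharide, at 4.51. In full-length against wild-type cells these stood at 1.21 and 4.67, and IL18, a cytokine, at -1.71 by 1 probe (2 higher and 1 lower of 15, beside 1.19% and 2.18% of all genes). IL18 was not well above background in truncated cells, where it was 3.52-fold lower than in full-length cells. This is a plain ratio and no minimum, as its truncated signal lay over the lowest passing signal of that array. In truncated against full-length cells GCH1 alone was changed among 15, at 3.99-fold higher, beside 4.67% of all genes changed. The list medians were -0.03, -0.14 and 0.00 in these comparisons, in the order given. As this list was chosen with earlier results of these data known, the counts of changed targets beside those shares are no test.

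Other sensors of microbial molecules were mostly dim. Of 23 listed, 7 had probes. MBL2, a secreted lectin that binds microbial sugars, had at probe 2 a log2 difference of -2.96 in truncated against wild-type cells and was at least 13.4-fold lower in full-length cells. MAVS, the adaptor of cytoplasmic RNA sensors, had log2 differences in truncated against full-length cells of -1.15, -1.15, -1.09 and -0.15 at its 4 measured probes. Their mean was -0.89, short of the threshold. By gene, 1 of 3 measured sensors was changed in truncated against wild-type cells, MBL2, beside 6.92% of all genes. In full-length against wild-type cells 0 of 2 were, and in truncated against full-length cells 0 of 2, beside 3.37% and 4.67%.

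**Figure D5:**
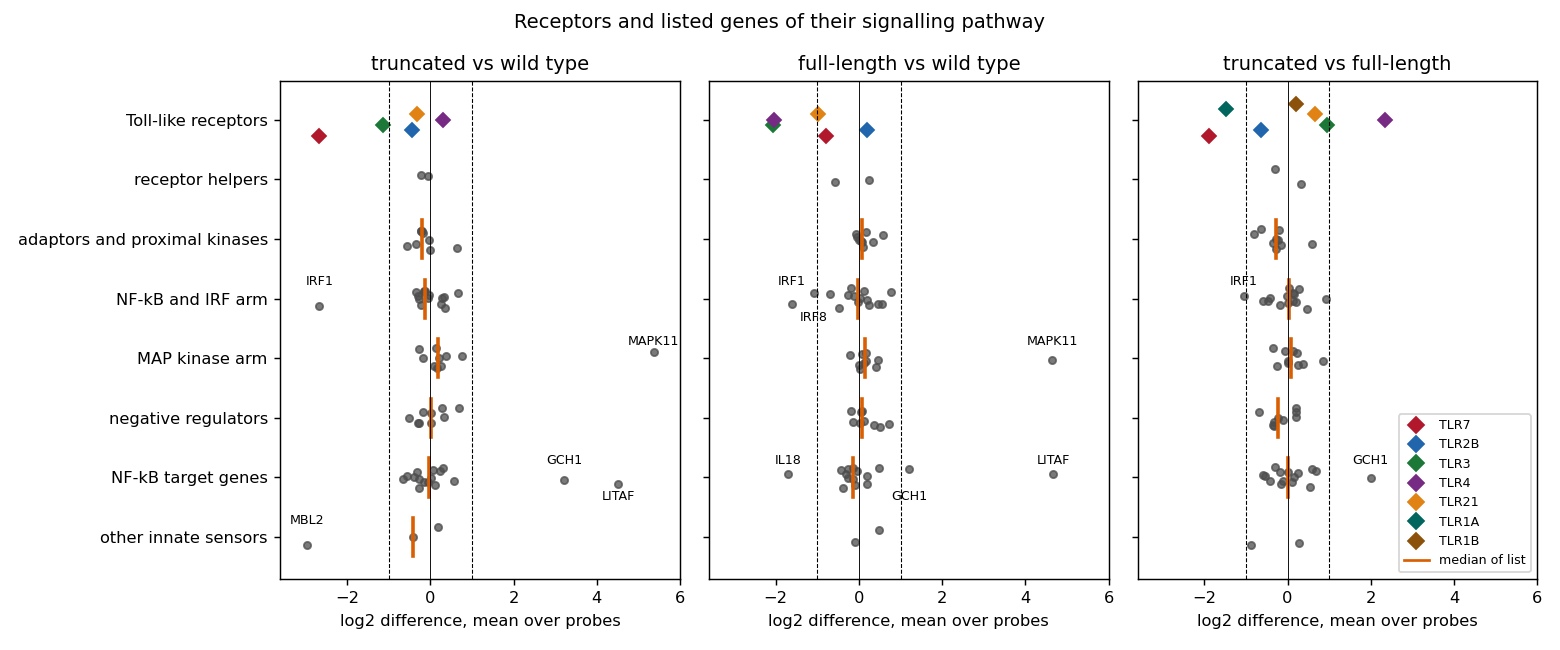
Log2 difference (x axis, mean over a gene's probes) of the measured receptors (coloured diamonds) and of the measured genes of 7 pathway lists (grey points; orange bars are list medians, drawn where over 2 genes were measured), in truncated against wild-type, full-length against wild-type and truncated against full-length cells; dashed lines mark a difference of 1 and changed genes are named. All adaptors and proximal kinases lie inside the dashed lines, while IRF1, MAPK11, GCH1 and LITAF lie outside in at least one comparison.

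The genes most like each receptor were sought among 4189 named genes well above background on all 3 arrays, by the Euclidean distance between log2 profiles centred on their mean over the 3 arrays. For TLR7 probe 1 the nearest were GNPDA1 (distance 0.308), DDB2 (0.312) and CDHR1 (0.333). GNPDA1 was also the nearest to probes 2 and 3, at 0.241 and 0.116. It had log2 differences from wild type of -2.36 in truncated and -0.65 in full-length cells. For TLR3 the nearest were EGFL6 (0.132), PIK3R5 (0.261) and KDM5B (0.403), and for TLR4 probe 1 TENM2 (0.172), LMO2 (0.183) and SSX2IP (0.277). Profiles over 3 arrays hold little shape: 6 genes lay within 0.5 of TLR7 probe 1, 8 within 0.5 of TLR3 and 4 within 0.5 of TLR4 probe 1.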

How the data were processed

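Total RNA was hybridised to 1 Cy3 array per line. Per the file headers, Agilent Feature Extraction 11.5.1.1 gave the processed signal, a linear intensity with background and spatial trend removed within the array. The deposited series-matrix values are also intensity; how they were scaled is not given in the sources used here. The array annotation used galGal3, per the file headers. The gene table was that of assembly GRCg7b and served for names and gene order only. Per the labels' protocols, RNA preparation included globin depletion.

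Control spots and 13 flagged spots were left out, which removed 7 probes and left 43596. No spot was saturated (0). Values were log2 of processed signal over the array's 75th percentile. Of the probes, 27.4% had a gene name. Alternatives were computed with limma 3.58.1 in R 4.3.3; normexp (offset 50) used the median signal, as the files hold no mean signal. In the check on simulated data for truncated against wild type, 200 of 200 shifted probes were recovered and 0 of 30207 others were called. The simulated arrays were copies of the wild-type array with small spot noise and an array factor. Shifts larger than the threshold were put on probes that were not dim, so this outcome was largely set in advance. The check covers the calculation and gives no rate of false calls for the real arrays. Each group having 1 array, leaving out replicates was not possible and the slide could not be fitted. No column was left unused (0).

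Members, gene lists, the rule for named genes and alternatives were chosen with earlier results of these data known. Named were all receptor probes, 12 fixed pathway genes, and listed genes changed at a probe in any comparison; of the marker lists these are summarised rather than named. A gene that met these rules is not reported here.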

Additional observations from a re-analysis of the deposited data

How the results depend on the processing

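No paired analysis was possible because each group has 1 array. Of 217 receptor differences recomputed, 183 moved by less than the standard deviation between paired probes of a gene, 34 moved further, and no changed value turned its sign (0). Among the 183 are values that could not move. These are the series-matrix values in truncated against wild-type cells, and all values without a background filter (described next). The setting without a background filter kept every probe. A level under the lowest one among probes well above background on its array was raised to that level. The list medians moved most in this setting, for the NF-κB targets. They went from -0.03 to -0.30 in truncated against wild-type cells, and from 0.00 to -0.24 between the DKO lines. The lowest passing level differs between arrays, so targets not well above background bring that gap into these medians. The adaptors' -0.27 between the DKO lines became -0.09 with the series-matrix values. In truncated against wild-type cells 4 of 9 receptor probes were changed, all lower, beside 7.62% of all probes. With normexp the count was 3 of 9, beside 3.71% (quantile normalization) and 3.79% (75th percentile). The normexp offset of 50 shrinks the log2 differences of dim probes by construction. Lower normexp counts here and below, and normexp values among the 34, are thus partly built in and do not test the calls. At a threshold of 1.5 on the log2 scale 3 of 9 were changed, beside 3.14%, and at 1.5-fold 4 of 9, beside 21.3%. Without a background filter 6 of 18 were, 1 higher and 5 lower, beside 7.31%. The 2 changed receptors became 1 under both normexp settings. In full-length against wild-type cells 2 changed receptors became 4 of 5 with the series-matrix values. There the 2 of 9 changed receptor probes became 4 of 9 with the series-matrix values and 6 of 9 at 1.5-fold. Over all probes the changed share was 7.16% and 11.1% in these settings, in place of 3.67%. Without a background filter 5 of 18 were changed, 2 higher and 3 lower, beside 3.84% of all probes. That count adds the bounds of 2-fold or more and is not a count of unfiltered levels. In truncated against full-length cells 5 of 13 changed receptor probes, beside 5.33% of all probes, became 3 of 13 with normexp and the 75th percentile, beside 2.59%. At 1.5-fold 10 of 13 were changed, beside 16.4%. Over all probes, the 2255 changed in truncated against wild-type cells became 1099 with normexp and quantile normalization, 1121 with normexp and the 75th percentile, 929 at a threshold of 1.5 on the log2 scale and 6306 at 1.5-fold. The 1073 in full-length against wild-type cells became 447, 487, 444 and 3259 under these settings, 2093 with the series-matrix values and 1672 without a background filter. The 1571 in truncated against full-length cells became 649, 765, 610 and 4850 under the first 4. Higher probes made up 68.5% of those changed in truncated against full-length cells; this was 57.9% after scaling by the median, 55.4% after quantile normalization and 79.6% under normexp and the 75th percentile. In truncated against wild-type cells that last setting gave 61.0% in place of 50.6%. It also put the median of all probes at 0.13 and 0.12, so its receptor values are to be read relative to these. The cause of these shifts was not tested. Signal over background limits TLR1A, TLR1B and the dimmer probes of TLR4 and TLR21.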

Other observations

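The measured genes nearest to each receptor in the gene table were examined, up to 3 on each side. Around TLR7 their median log2 difference was -0.11 in truncated and 0.04 in full-length cells against wild type. The immediate neighbours stood at -0.61 and -0.59 for TMSB4X, an actin-binding peptide, and at 0.19 and 0.20 for PRPS2, an enzyme of nucleotide synthesis. EGFL6, the gene whose profile lay nearest to that of TLR3, lies 5 genes from TLR7, with mean log2 differences from wild type of -1.32 in truncated and -1.97 in full-length cells. Around TLR4 the medians over 6 genes were 0.13 in truncated and -0.17 in full-length cells against wild type, and 0.25 in truncated against full-length cells. Around TLR1A and TLR1B they were 0.26, -0.05 and 0.24. MND1, a meiotic recombination gene 4 genes from TLR2B, stood at 3.64 in truncated and 1.99 in full-length cells against wild type, whereas TLR2B was at -0.43 and 0.20. H2AFZ itself is among the 6 around TLR3, 22 genes away. The median over those 6 was -0.11 in truncated and 0.0091 in full-length cells against wild type.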
